A study of Mus musculus with 2 samples.

Results

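The 10 genes followed here belong to the contractile and actin-binding machinery and were measured in mouse urothelial organoids: Acta2, Tagln, Cnn1, Myl9, Tpm1, Tpm2, Cald1, Tns1, Flna and Cav1. They were chosen by symbol, and all 10 were found among the 31053 genes measured. The choice was made after their levels in these cells were known, so the levels are a description and carry no test. Organoids are balls of epithelium grown in gel, here from wild-type (WT) C57BL/6 mice aged 8 to 10 weeks. Proliferative (P) organoids were grown in complete medium with WNT3A, RSPO1, EGF, Noggin and LY2157299, which blocks the TGF-β receptor. Differentiated (D) organoids had 7 days in complete medium and then 7 further days without any of those 5 factors. Both kinds started from unsorted urothelial cells, in which stromal cells were not removed by a sort, and a ROCK inhibitor was present only at the start of culture. Each condition was measured in 1 droplet-based library of single cells, so the spread between cultures is unknown and no difference below was checked in replicates.

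These genes code for parts of the actin cytoskeleton. Actin filaments and myosin motors generate pull, tropomyosin and caldesmon sit along the filament and control access of myosin, and filamin and tensin tie filaments to each other and to the membrane. Acta2, Tagln, Cnn1 and Myl9 are textbook genes of smooth muscle, and are also made by myofibroblasts and by myoepithelial cells, the contractile basal cells of glands. The urothelium lines the bladder, with basal cells that make the keratins Krt5 and Krt14 and luminal cells that make uroplakins.

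Cells with over 800 genes and at most 12% of their counts from mitochondrial genes were kept, which left 6818 of 8194 barcodes in P and 4896 of 6975 in D. A count here is a unique molecular identifier (UMI), a tag that marks 1 captured RNA molecule. The P cells held 26681469 UMIs (median 3405.5 per cell) and the D cells 20305621 (median 3227.5). Levels are UMIs per 1000000 of the library (CPM). On this scale the median gene lay 0.42 log2 units higher in D, so ratios are also given with that shift removed. Of the cell barcodes, 10 occurred in both libraries, 6 of them among kept cells of both. Krt5 was detected in 97.9% of P cells and 95.8% of D cells once every cell was thinned to 2100 UMIs, and Epcam, an epithelial adhesion protein, in 45.6% and 61.2%. Myh11 and Des, which define smooth muscle, had 1 UMI each in P and 0 in D, and Pdgfrb of pericytes likewise. All intervals are 95% and cover counting error only.

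Of the 10 genes, 5, namely Acta2, Tpm1, Cald1, Tns1 and Flna, reached a level in D of 2 times or more that in P, and Cav1 did so in P. This counts the 7 genes whose UMIs in P and D together came to 100 or more, of which Tpm2 stayed within 2-fold. Acta2 and Tns1, with 28 and 29 UMIs in P, met that minimum only through D. Among the 10719 genes that met that minimum, 13.5% passed the 2-fold mark toward D and 4.73% toward P. With the shift removed those shares were 5.64% and 8.65%, and the calls of the 7 genes were as before. The 7 genes had a median log2 ratio of 1.75 toward D, against 0.41 for all genes that met the minimum.

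**Figure D1:**
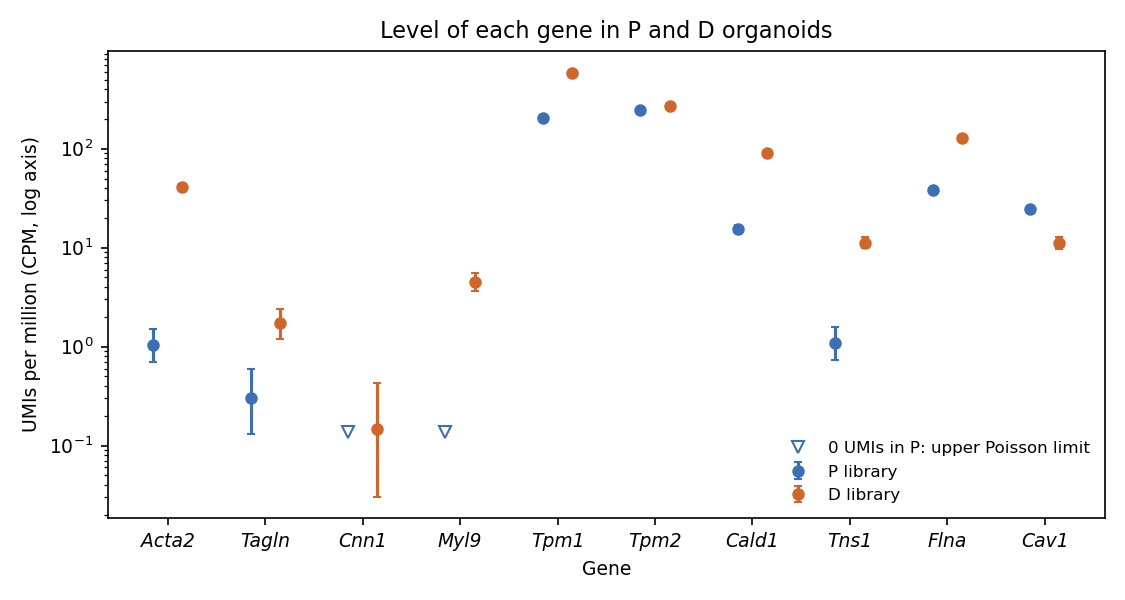
Level of each of the 10 genes (UMIs per 1000000, log axis) in the P library (blue) and the D library (orange), with exact Poisson 95% intervals, most of them smaller than the points. Open triangles mark 0 UMIs in P at the upper limit of the interval. Acta2 stood at 1.05 in P and 41.2 in D, and Cav1 at 24.6 and 11.1.

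Acta2, the smooth muscle actin, had 28 UMIs in P and 837 in D. Its level was 1.05 CPM in P (0.697 to 1.52) and 41.2 CPM in D (38.5 to 44.1). The log2 ratio was 5.30 (4.75 to 5.89), and 4.87 with the shift removed. The gene (ENSMUSG00000035783) lies on chromosome 19, 34241090 to 34255590, minus strand, on GRCm38, the build the authors aligned to. Its coding sequence is close to that of the other muscle actins, of which Actg2 had 1 UMI in each library.

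The other genes of the smooth muscle set were rare. Myl9, a regulatory light chain of myosin (chromosome 2, 156775420 to 156781658, plus strand), had 0 UMIs in P and 92 in D. Set against a floor of 3 UMIs in P, its level was 40.3-fold higher in D, although its total fell under the minimum of 100. That value depends on the floor and is not a lower limit. Tagln, transgelin, which binds actin filaments, was counted 8 times in P and 35 times in D, and Cnn1, calponin, 0 and 3 times. Both are too thinly counted for a call, and for Cnn1 both libraries lie at or under the floor of 3 UMIs. Of these 4 genes, Acta2 alone met the minimum.

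Tropomyosins and caldesmon were read at higher counts. Tpm1 (chromosome 9, 67022590 to 67049406, minus strand) had 5423 UMIs in P and 11899 in D, or 203 CPM (198 to 209) and 586 CPM (576 to 597), with a log2 ratio of 1.53 (1.48 to 1.57). Tpm2 had 6570 UMIs in P and 5464 in D, or 246 and 269 CPM. Its log2 ratio was 0.13 on the CPM scale and −0.29 with the shift removed, so its direction depends on the scale. Cald1, caldesmon (chromosome 6, 34598500 to 34775473, plus strand), had 414 UMIs in P and 1858 in D, or 15.5 CPM (14.1 to 17.1) and 91.5 CPM (87.4 to 95.8), with a log2 ratio of 2.56 (2.41 to 2.72). These 3 genes have muscle and nonmuscle isoforms, which counts per gene do not separate.

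Among the genes that anchor filaments, Flna, a filamin that crosslinks actin, had 1021 UMIs in P and 2616 in D, or 38.3 and 129 CPM, a log2 ratio of 1.75 (1.65 to 1.86). Tns1, a tensin of focal adhesions, had 29 and 228 UMIs, or 1.09 and 11.2 CPM, a log2 ratio of 3.37 (2.81 to 3.98). Cav1, the coat protein of caveolae, went the other way, with 656 UMIs in P and 226 in D, or 24.6 CPM (22.7 to 26.5) and 11.1 CPM (9.73 to 12.7). Its log2 ratio was −1.14 (−1.37 to −0.92), and −1.57 with the shift removed.

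Serum response factor, with its cofactors, is a textbook regulator of smooth muscle genes through the CArG box, here searched as CC, then 6 bases that are each A or T, then GG. The MCAT element, CATTCC, is the textbook site of TEAD factors. Both were searched on both strands in the 250 bases before the annotated start, which RefSeq (GRCm38.p6) gives for 11 promoters of 9 of the genes. Tagln had no entry. The 3 windows below are shown because they hold such elements. Capitals mark the matches, and a CArG box with C or G at 1 of its 6 middle bases, a form added after the Acta2 window had been seen, is also in capitals.
Acta2: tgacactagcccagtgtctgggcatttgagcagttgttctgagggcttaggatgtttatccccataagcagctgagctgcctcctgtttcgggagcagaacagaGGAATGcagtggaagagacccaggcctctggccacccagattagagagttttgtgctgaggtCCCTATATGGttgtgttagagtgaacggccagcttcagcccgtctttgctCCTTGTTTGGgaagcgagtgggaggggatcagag
Myl9: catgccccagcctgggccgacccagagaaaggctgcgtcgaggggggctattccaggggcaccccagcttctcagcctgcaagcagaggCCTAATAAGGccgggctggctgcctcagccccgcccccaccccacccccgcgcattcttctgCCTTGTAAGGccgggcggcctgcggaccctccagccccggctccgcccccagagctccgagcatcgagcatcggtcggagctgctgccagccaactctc
Tpm1: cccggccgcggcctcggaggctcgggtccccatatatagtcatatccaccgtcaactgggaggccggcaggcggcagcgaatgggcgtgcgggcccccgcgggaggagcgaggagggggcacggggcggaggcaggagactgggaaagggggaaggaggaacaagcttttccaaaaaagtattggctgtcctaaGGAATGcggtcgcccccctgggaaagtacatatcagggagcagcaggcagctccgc

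The Acta2 window is chr19:34255374-34255623 (GRCm38, minus strand), the Myl9 window chr2:156775214-156775463 (plus strand) and the Tpm1 window chr9:67049214-67049463 (minus strand). All 3 overlap the outer bounds of their genes in the GENCODE annotation. Myl9 held the only full CArG box among the 11 windows, with its first base 161 bases before the start, and 1 box with a base off at 99. Acta2 held 2 boxes with a base off, at 84 and 34, and an MCAT element on the other strand at 146. Full boxes were present in 1.47% of 32851 promoters of the same length, boxes with a base off in 7.24%, and MCAT in 12.6%. MCAT matched 4 of the 11 windows, those of Acta2, Tpm1, Flna and 1 of Cald1. These are letter matches, with no measurement of binding.

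Detection was next compared at equal depth, with each cell thinned to 2100 UMIs and shallower cells left out (180 in P and 479 in D). Of the D clusters described below, D1, which held most Acta2 UMIs, kept 1031 of 1306 cells. D0 kept 2736 of 2924 cells and D2 650 of 666. The thinned D set thus held relatively fewer D1 cells than the kept cells did, and the part of this in the D shares was not tested. Acta2 was detected in 9 of 6638 P cells (0.136%, 0.0620 to 0.257%) and in 149 of 4417 D cells (3.37%, 2.86 to 3.95%). Without thinning the shares were 0.308% and 4.39%. Uroplakin-high D cells, set only by holding at least 3 uroplakin UMIs, gave 13 of 1103 with Acta2 (1.18%). Of these 1103 cells, 553 (50.1%) also held Krt14 and 968 (87.8%) Krt5, so they are not luminal cells alone. Whether the Acta2 counts in them came from RNA of other cells or from doublets was not tested. The median depth of the uroplakin-high cells before thinning was 4026 UMIs. Myl9 was found in 0 of 6638 P cells, with an upper limit of 0.0556%, and in 38 D cells (0.860%). None of the uroplakin-high cells held it, with an upper limit of 0.334%.

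Cald1 was detected in 3.28% of P cells and 12.04% of D cells, and Flna in 7.80% and 21.2%. Tns1 was detected in 0.196% and 2.49%, and Tpm1 in 31.3% and 51.3%. Tpm2 was found in 40.6% of P cells and 38.6% of D cells. Cav1 was found in 5.21% of P cells (4.69 to 5.77%) and 2.42% of D cells (1.99 to 2.92%), and in 1 of the 1103 uroplakin-high cells. Tagln was found in 4 P cells (0.0603%) and 12 D cells (0.272%), and Cnn1 in 0 and 2. The shares of Acta2, Myl9, Cald1, Flna, Tns1 and Tpm1 were thus larger in D with intervals that do not overlap, and that of Cav1 was smaller. These intervals are narrow because they count cells of 1 library each. The share of all genes whose intervals do not overlap was not computed. Leaving out the 5% of cells with the most UMIs moved the share of D cells with Acta2 to 3.38%, and no doublet caller was run.

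The genes were read in the same droplets as the basal keratins. In D organoids all 38 cells with Myl9 and 136 of the 149 cells with Acta2 (91.3%) also held a Krt14 UMI. Acta2 was detected in 4.34% of Krt14+ D cells (3.66 to 5.12%) and 1.01% of Krt14- D cells (0.539 to 1.72%), a ratio of 4.30. The share in Krt14- cells is close to the 1.18% in uroplakin-high cells, and the source of either was not tested. Cav1 was detected in 3.35% against 0.156%, a ratio of 21.6, and Tns1 in 3.42% against 0.233%, a ratio of 14.6. For Cald1 the shares were 16.1% and 2.18%, and for Flna 26.3% and 8.94%. Tpm1 (57.7% and 35.5%) and Tpm2 (43.8% and 26.0%) were spread more evenly. In all, 5 of the 7 genes present in at least 1% of D cells were detected at least 2 times as often in Krt14+ cells, against 3.68% of all such genes. Of the 5, Tns1 and Cav1 met the 1% minimum only through the Krt14+ cells.

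In P organoids, 3 of the 5 genes present in at least 1% of cells passed the same mark, against 7.49% of all such genes. They were Cald1 (5.03% of Krt14+ cells and 0.399% of Krt14- cells), Cav1 (7.55% and 1.36%) and Flna (10.6% and 3.11%). Cald1 met the 1% minimum only through the Krt14+ cells. Of the 9 P cells with Acta2, 8 were Krt14+. Krt5 divided the cells poorly, since it was missing from only 139 P cells and 186 D cells. At least 2-fold more frequent detection in Krt5+ cells was seen for 1 of 5 genes in P (background 15.6%) and 3 of 7 in D (background 9.19%). The D count rested on Acta2, Tns1 and Cav1, which had 3, 1 and 1 detected cells without Krt5. Tns1 and Cav1 met the 1% minimum only through the Krt5+ cells. Of the Acta2 cells in D, 134 held both keratins, 2 only Krt14, 12 only Krt5 and 1 neither.

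**Figure D2:**
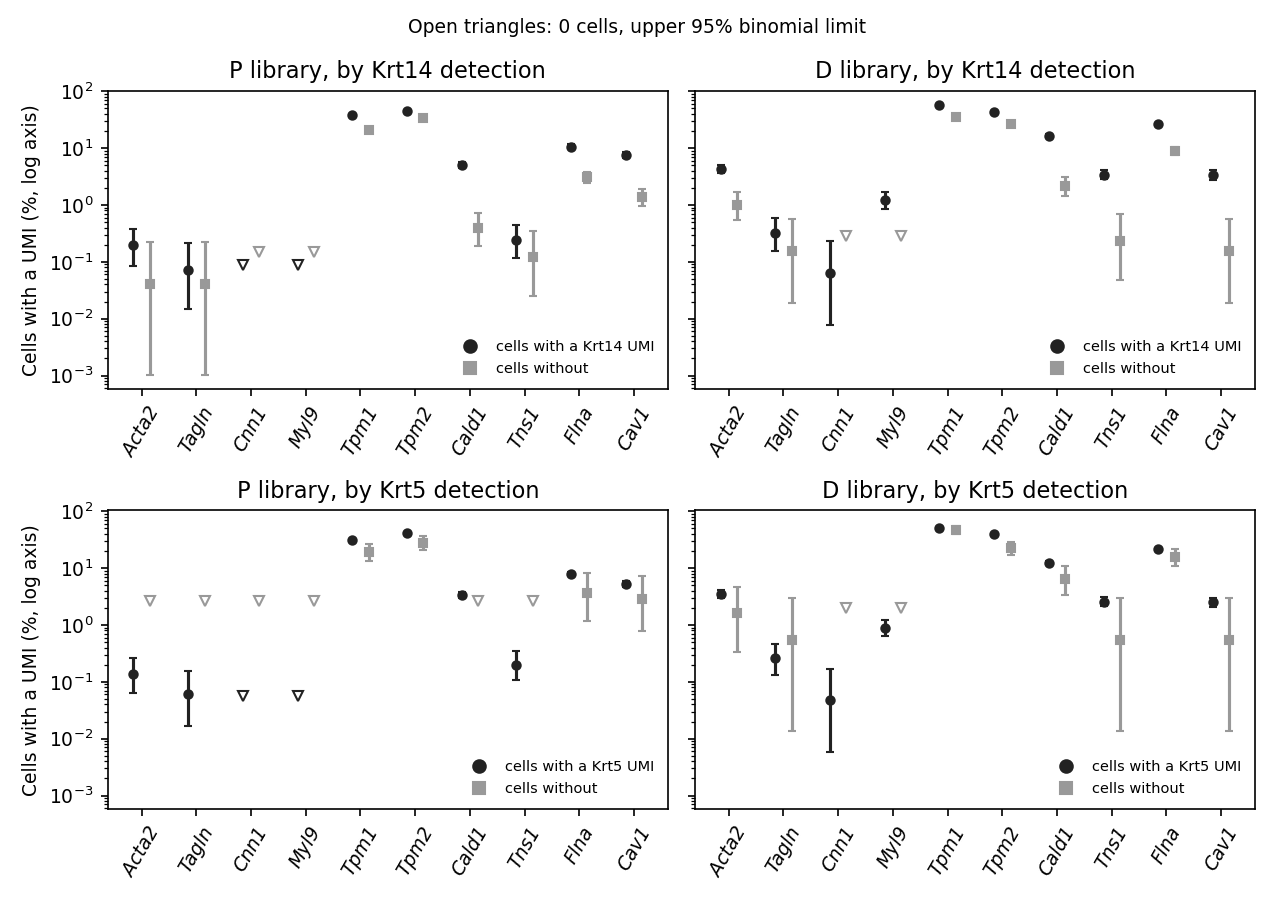
Percent of cells with a UMI of each gene (log axis) at 2100 UMIs per cell, in cells with a UMI of Krt14 (upper row) or Krt5 (lower row) and in cells without, for P and D, with exact binomial 95% intervals. Open triangles mark 0 cells at the upper limit. In D, Acta2 was found in 4.34% of Krt14+ cells and 1.01% of the others, while cells without Krt5 were few and their intervals wide.

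The keratin classes were then divided by the number of Krt14 UMIs, a division added after the data had been seen. Cells with 5 to 14 Krt14 UMIs had a median of 8 in both libraries, which sets P and D cells of like Krt14 content side by side. Among them Acta2 was detected in 3 of 2076 P cells (0.145%, 0.0298 to 0.422%) and 18 of 663 D cells (2.71%, 1.62 to 4.26%). Tns1 was detected in 0.241% and 2.41%, Cald1 in 6.70% and 13.0%, and Flna in 12.5% and 25.6%. Cav1 was the reverse, with 9.39% in P (8.17 to 10.7%) and 1.81% in D (0.939 to 3.14%).

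At 15 or more Krt14 UMIs, Acta2 was found in 1 of 352 P cells (0.284%, 0.00719 to 1.57%) and 109 of 1136 D cells (9.60%, 7.94 to 11.5%). The median number of Krt14 UMIs in this class was 18 in P and 25 in D. Myl9 was found in 0 of the P cells (upper limit 1.04%) and 34 of the D cells (2.99%), and Tns1 in 0 and 86 (7.57%). Cald1 reached 7.39% in P and 33.1% in D, and Tpm1 51.7% and 77.9%. Tpm2 was at 57.4% (52.0 to 62.6%) and 59.9% (56.9 to 62.7%), with overlapping intervals. Cav1 was at 11.4% (8.24 to 15.2%) and 7.83% (6.34 to 9.55%), also overlapping. In D the detection of all 8 plotted genes was highest in this class, as was that of Krt5 (99.9%). The share of all genes with their highest detection in this class was not computed for either library. In P the class was also the highest for Tpm1, Tpm2, Cald1, Flna (14.5%) and Cav1, and no P class held more than 4 cells with Acta2 or 5 with Tns1.

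**Figure D3:**
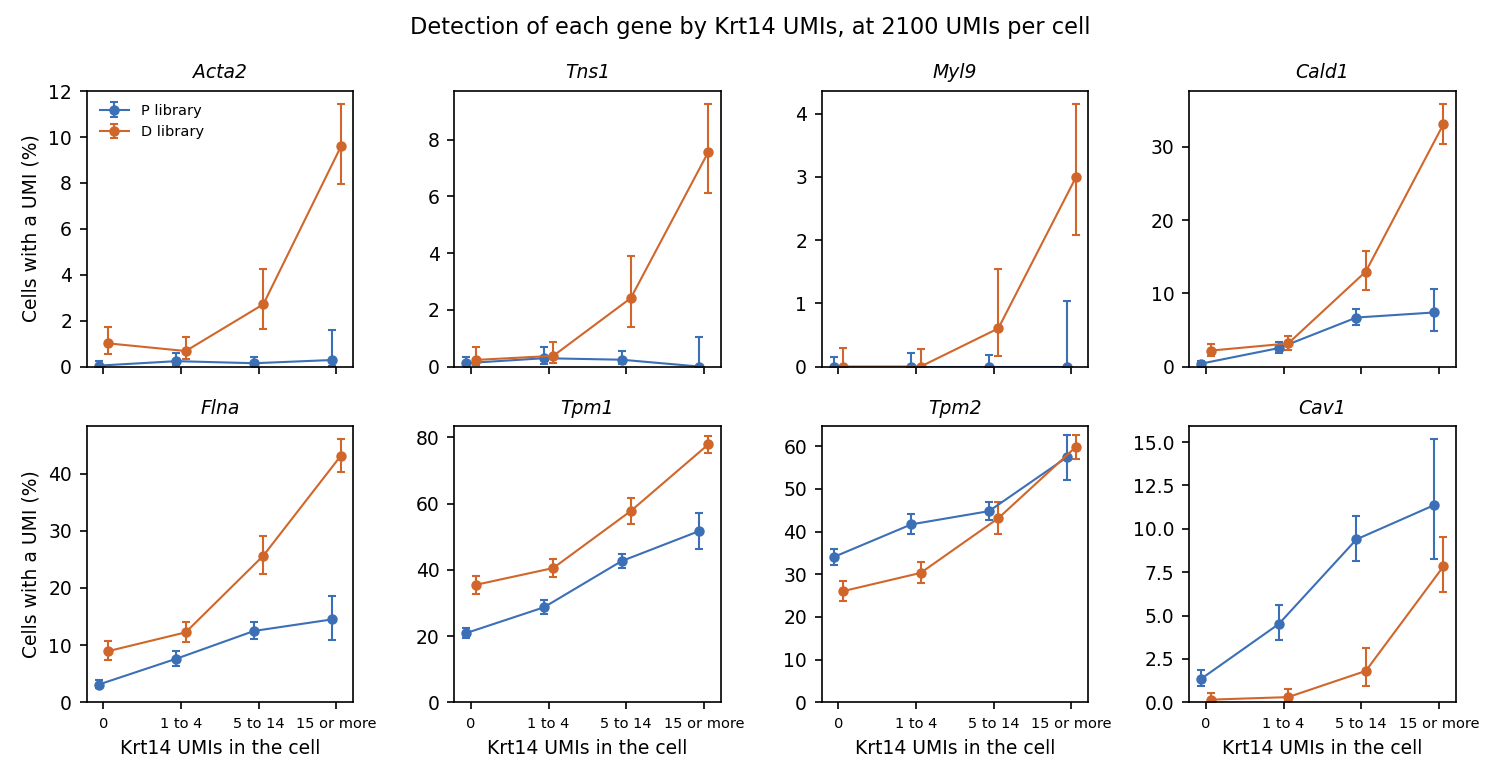
Percent of cells with a UMI of each gene, at 2100 UMIs per cell, by the number of Krt14 UMIs in the cell, for P (blue) and D (orange) with exact binomial 95% intervals. Acta2 reached 9.60% of D cells with 15 or more Krt14 UMIs and stayed at or under 0.284% in every P class, while Cav1 lay higher in P than in D at 5 to 14 Krt14 UMIs.

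The difference between libraries was also taken within thinned cells that held both Krt14 and Krt5, 4102 in P and 3052 in D. Acta2 was at 1.04 CPM in P and 54.1 CPM in D there, a log2 ratio of 5.70 (4.75 to 6.84). Tns1 had a log2 ratio of 3.96 (3.03 to 5.06), Cald1 of 2.34 (2.13 to 2.56), Flna of 1.62 (1.46 to 1.78) and Tpm1 of 1.55 (1.48 to 1.62). Tpm2 was at 0.25 and Cav1 at −1.13 (−1.45 to −0.82). Myl9 had 0 UMIs against 45, which is 20.2-fold higher in D when P is set to a floor of 3 UMIs. The lower limit of its log2 ratio was 3.98. Of 7 genes, 5 were again at least 2-fold higher in D (background 13.7%) and 1 in P (background 3.91%). Acta2 and Tns1, with 9 and 10 UMIs in P, again met the minimum only through D. The calls fell on the same genes as those over all kept cells.

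Acta2 was concentrated in few cells. Before thinning, 215 of the 4896 D cells held its 837 UMIs, with up to 52 in 1 cell, and 60 cells with at least 5 UMIs held 594 of them (71.0%). In P, 21 cells held the 28 UMIs, with at most 3 in a cell. After thinning, D cells were split into those with 0, 1, 2 to 4, and 5 or more Acta2 UMIs (4268, 84, 43 and 22 cells). Krt14 was detected in 70.2%, 84.5%, 100% and 100% of them, and its median count was 2, 19, 23 and 32.5 UMIs. Median Krt5 was 8, 8, 8 and 10 UMIs.

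From each class to the next, Tpm1, Tpm2, Cald1, Flna, Myl9 and Cav1 were detected more often. Htra1, which is not one of the 10 genes, rose as well, from 11.1% to 52.4%, 69.8% and 95.5%. The share of all genes that rose in this way was not computed. The upper classes held only 43 and 22 cells, so the last step is loosely measured. Cald1 was detected in 10.5% of cells without Acta2, 44.0% of cells with 1 UMI, 65.1% with 2 to 4, and 77.3% with 5 or more. Flna went from 19.8% to 53.6%, 67.4% and 81.8%, and Tpm1 from 49.9% to 84.5%, 95.3% and 100%. Tpm2 stood at 37.2%, 69.0%, 90.7% and 90.9%, nearly level between the upper classes. Myl9 went from 0.445% to 5.95%, 13.95% and 36.4%, and Cav1 from 1.92% to 9.52%, 23.3% and 31.8%. The other 3 genes did not follow that order throughout. Tns1 stood at 2.09%, 11.9%, 18.6% and 13.6%, Tagln at 0.0937%, 4.76%, 4.65% and 9.09%, and Cnn1 was found in 1, 1, 0 and 0 cells. Upk1a, a uroplakin, moved the opposite way, from 40.3% to 22.6%, 6.98% and 0 of 22 cells. A floor of 3 cells in that last class is 13.6%. Myh11, Des and Pdgfrb were at 0 in all 4 classes, as they had 0 UMIs in all kept D cells, so they do not tell the classes apart. Median depth rose with the classes, from 3373 to 3784.5, 4044 and 4052.5 UMIs before thinning, and its part in these shares beyond the thinning was not tested. Krt14 rose with the classes too, and its part in these shares was not tested either.

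**Figure D4:**
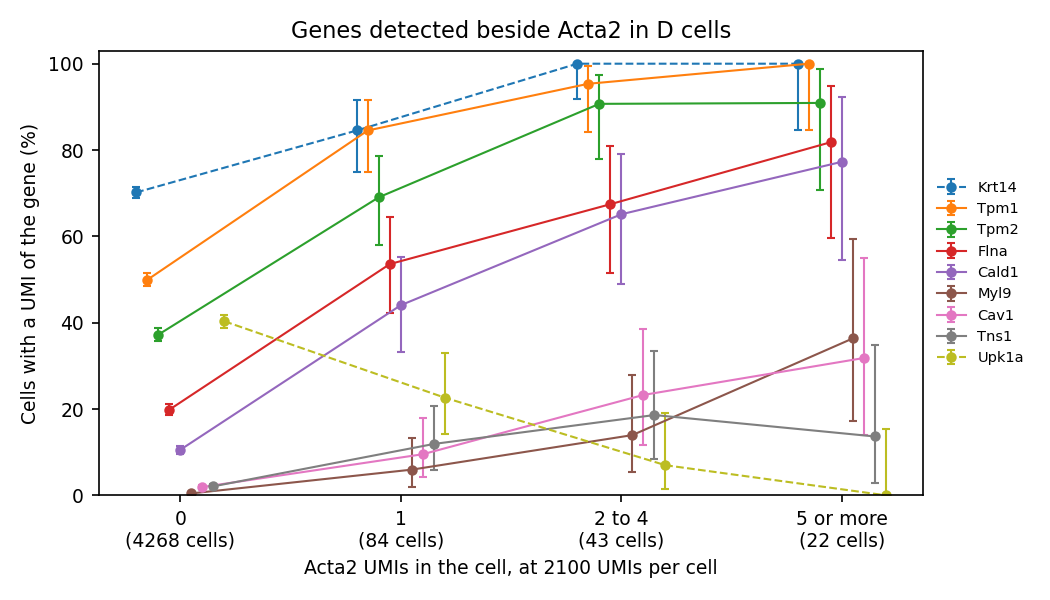
Percent of D cells with a UMI of Krt14 or Upk1a (dashed) and of 7 of the genes (solid), by the number of Acta2 UMIs in the cell at 2100 UMIs per cell, with exact binomial 95% intervals. Cald1 rose from 10.5% to 77.3% of cells across the 4 classes, and Upk1a fell from 40.3% to 0 of 22 cells.

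Several of the genes were often found together. At least 5 of the 10 were detected in 115 D cells (2.60%) and 2 P cells (0.0301%), and the highest number was 8, in 1 D cell. None of the 10 was detected in 27.7% of D cells and 36.8% of P cells. All 115 D cells held both Krt14 and Krt5, and Epcam was detected in 87 of them (75.7%), against 59.2% of D cells with none of the genes. Cdh1, the epithelial cadherin, was the reverse, in 33 of the 115 (28.7%) against 46.5%. Upk3a was found in 1, Col1a1 in 1 and Rgs5 in 4. Myh11, Des and Pdgfrb had 0 UMIs in all kept D cells, so their absence from the 115 cells sets these cells apart from no others. The median depth of the 115 cells before thinning was 3718 UMIs and their mitochondrial share 5.16%, against 3346 UMIs and 7.34% for D cells with none of the genes.

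Related gene lists moved with that number. From D cells with none of the genes to those with 5 or more, actin and nonmuscle myosin genes went from 5085 to 11106 CPM, caveolar genes other than Cav1 from 121 to 692 CPM, and genes of the serum response factor pathway from 106 to 406 CPM. Basal markers went from 5466 to 17988 CPM and uroplakins from 1563 to 41.4 CPM. The broad epithelial list went from 10135 to 4509 CPM and the myoepithelial list from 8774 to 2692 CPM. Over all kept D cells, Krt15 held 149115 of the 151715 UMIs of the myoepithelial list, so that sum follows 1 keratin. Sparc and Igfbp5 of the same list had log2 ratios of 3.23 and 4.14 toward D, Krt17 one of −0.16, and Oxtr 1 UMI in each library. Of the 730 Sparc UMIs in D, 629 lay in cluster D1, described below, and the others of the list were not among its leading genes. Fibroblast genes stood at 16.7 and 74.5 CPM, pericyte genes at 40.0 and 70.4 CPM, and smooth muscle genes at 6.22 and 24.8 CPM, sums that rest on 18, 17 and 6 UMIs in the cells with 5 or more. The part of these markers in the result was not tested. Early response genes, which dissociation can induce, stood lower in the cells with 5 or more, at 1420 against 3088 CPM, and the part of dissociation in these values was not tested.

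For pairs of genes, the number of cells with both was set against the product of their shares. Of the 22 pairs with a product of at least 5 cells in D, all 22 exceeded it and 10 were at least 2 times as frequent, with a median of 1.95. Over all pairs of genes with such a product in D, 50.3% exceeded it and 0.231% reached 2 times. Acta2 and Cald1 led, in 82 cells together against 17.9, a ratio of 4.57, followed by Cald1 with Tns1 (51 against 13.2, 3.85) and Cald1 with Cav1 (46 against 12.9, 3.57). Tpm1 with Tpm2 was the lowest at 1.15. In P, 11 pairs could be counted, 10 exceeded the product (background 51.3%) and 2 were at least 2 times as frequent (background 0.327%), with a median of 1.23. These were Cald1 with Cav1 (2.20) and Cald1 with Flna (2.17).

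Cells of each library were also clustered with the 10 genes removed from the features, so that the genes did not shape the groups directly. The D cells formed 3 clusters and the P cells 4. The second D cluster (D1, 1306 cells, 26.7%) was led by Wisp1 and Ccl20 beside Myl9, Acta2 and Cav1, and held Krt14 in 100% of thinned cells at 11270 CPM. The first (D0, 2924 cells) was led by Reg1, and the third (D2, 666 cells) held Upk3a among its leading genes. D1 contained 90.1% of the Acta2 UMIs of the library. Acta2 was at 184 CPM in D1 (171 to 198), 4.44 CPM in D0 and 7.94 CPM in D2. Myl9 was at 21.7, 0.230 and 0 CPM in the same order, and Tns1 at 47.4, 2.22 and 1.59 CPM. Since cells were grouped by their expression, these differences are a description.

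The share of a gene's D counts that lay in D1 was 96.7% for Myl9, 89.4% for Cav1, 85.1% for Tns1, 82.9% for Tagln and 77.6% for Cald1. It was lower for Tpm1 (56.4%), Flna (52.6%) and Tpm2 (44.0%). Tpm1 was at 1641 CPM in D1, 275 in D0 and 505 in D2, Flna at 336, 75.2 and 82.0, and Cald1 at 352, 16.5 and 64.2. Tpm2 was at 588, 194 and 167 CPM. Krt5 was at 4355 CPM in D1 and 4354 in D0, and at 1769 in D2. Summed over the 10 genes, the level was 3227 CPM in D1, 569 in D0 and 830 in D2, with Tpm1 and Tpm2 most of the sum in each. D1 was also the shallowest cluster of D, with a median of 2671 UMIs against 3305.5 and 4027.

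In P, the cluster with the most Krt14 (P0, 2546 cells, 4136 CPM, led by Ctla2a) and the cycling cluster (P3, 354 cells, led by Ccna2) had the highest levels of most of these genes. Cav1 was at 52.1 CPM in P0 (47.1 to 57.4) and 46.8 CPM in P3 (36.8 to 58.7), against 8.01 in P1, which was led by Sprr3, and 16.1 in P2, which was led by Fmo2. D1 reached 49.4 CPM of Cav1 (42.8 to 56.6), an interval that overlaps those of P0 and P3, while D0 was at 1.68 CPM and D2 at 0.635. Cav1 was detected in 9.71% of thinned P0 cells and 9.41% of thinned D1 cells. Acta2 did not exceed 2.50 CPM in any P cluster, nor Tns1 3.12 CPM. Cald1 was at 36.6 and 38.1 CPM in P0 and P3 against 2.93 and 6.79 in P1 and P2.

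**Figure D5:**
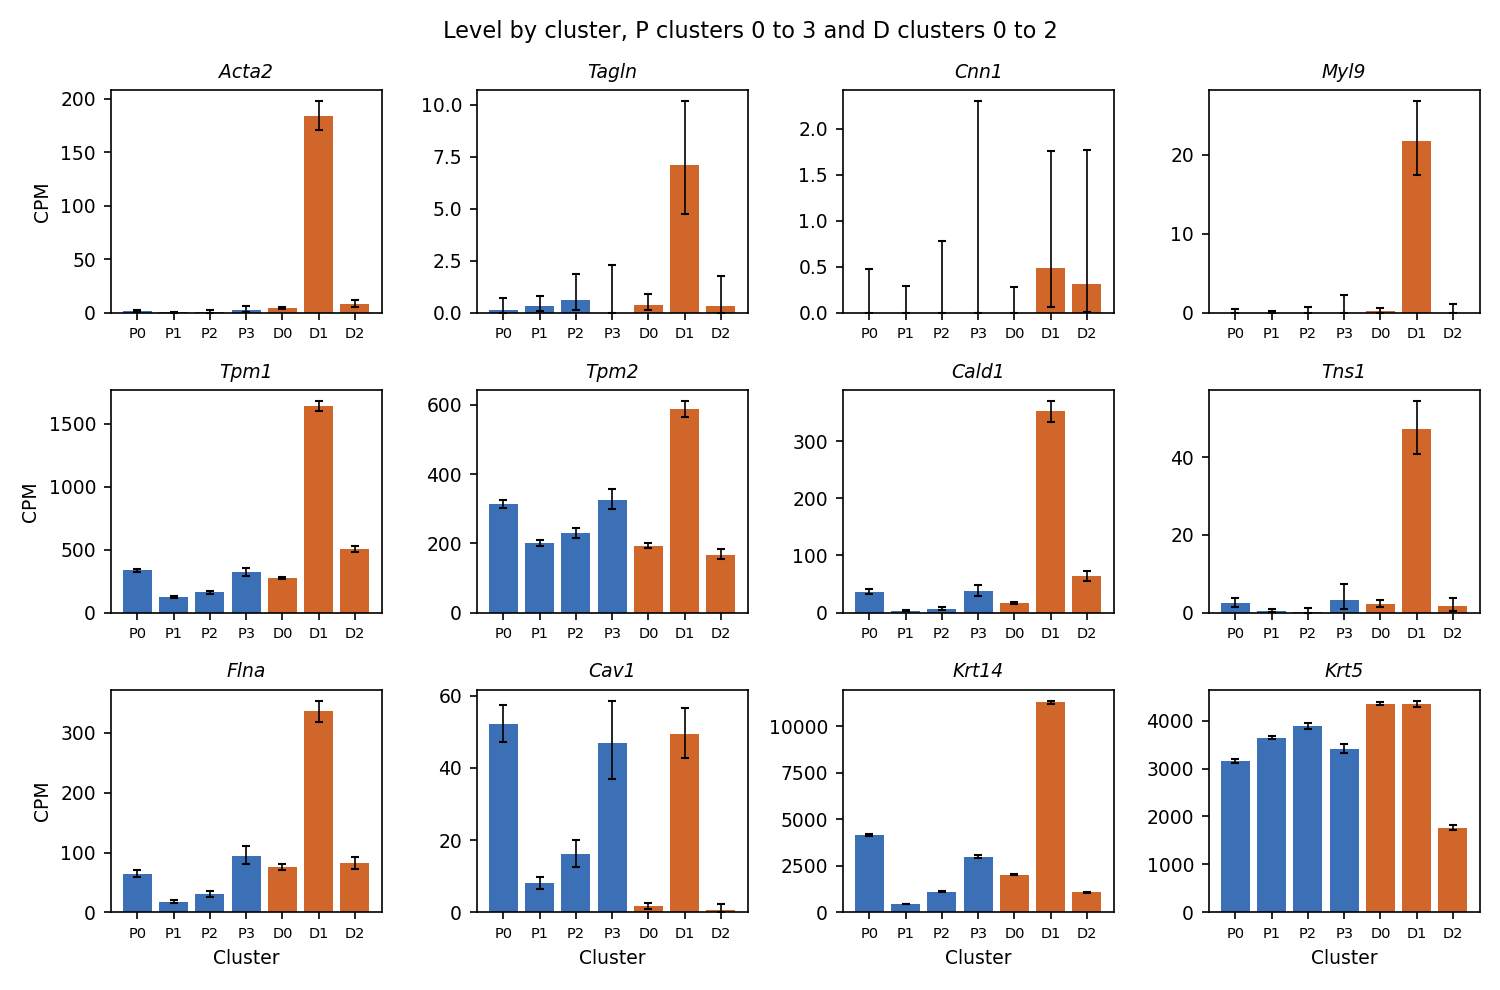
Level (CPM, each panel on its own axis from 0) of the 10 genes, Krt14 and Krt5 in the 4 P clusters (blue) and 3 D clusters (orange), clustered without the 10 genes, with exact Poisson 95% intervals. Acta2 was at 184 CPM in D1 and under 8 CPM in every other cluster, whereas Cav1 was near 50 CPM in P0, P3 and D1.

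The genes most like the 10 across cells were ranked by the Pearson correlation of their log-normalized level with the mean over the 10, a description over cells of 1 library that share its depth and base composition. In D (4896 cells, 7813 genes) they were Htra1 (0.62), Krt14 (0.55), Actn1 (0.50), Col18a1 (0.50), Prss23, Stk17b, Cnn2 and Cavin3 (0.43). Htra1 is a secreted protease, Actn1 crosslinks actin, and Cavin3 belongs to caveolae. In P (6818 cells, 7760 genes) Krt14 led at 0.37, followed by Tmem176b, S100a10, Hspa8, Tmem176a, Col17a1, Htra1 and Mt1, all at or under 0.26. Krt5 ranked 311th in D (0.13) and 199th in P (0.095). The lowest correlations were those of Gsta4, Krt19, Gstm1 and Wfdc2 in D and of Ly6d, Gsta4, mt-Co1 and Csta1 in P.

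Genes of the same pathway were read from lists. Of 9 genes for cytoplasmic actin, nonmuscle myosin and their kinase, 7 had enough UMIs, and 5 passed the 2-fold mark toward D (median of the 7, 1.34). They were Actb at 1.45, Myh9 at 1.14, Myh14 at 1.78, Myl6 at 1.39 and Myl12a at 1.34. With the shift removed, 2 of them, Actb and Myh14, passed. Mylk, the kinase of smooth muscle myosin, had 6 and 11 UMIs. Of 14 other actin-filament genes, among them relatives of tropomyosin, calponin, transgelin and filamin, 13 had enough UMIs and 1 was higher in D, Actn1 at 1.59. Tagln2, Cnn2, Cnn3 and Tpm4 lay between −0.04 and 0.33.

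Focal adhesion genes gave 4 of 12 higher in D (Fermt2 at 1.69, Tns2 at 1.30, Ilk at 1.19 and Parva at 1.11), and 1, Fermt2, with the shift removed. Tns4 was at −0.77, which passed the 2-fold mark toward P only with the shift removed. Of 4 caveolar genes with enough UMIs, Cavin3 (1.83) and Cavin1 (1.27) were higher in D, whereas Cav2 was at 0.10. With the shift removed, 1 of them, Cavin3, passed.

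The serum response factor list had 4 of 7 counted genes higher in D. Srf itself had 165 UMIs in P and 265 in D, a log2 ratio of 1.08 that fell to 0.66 with the shift removed. Ankrd1 was at 4.65 (3.69 to 5.80), Ctgf at 3.95 (3.58 to 4.35) and Cyr61 at 2.86 (2.63 to 3.10), 3 genes that YAP and TEAD also control. Of the 172 Ankrd1 UMIs in D, 148 lay in D2, the cluster with Upk3a among its leading genes. The cofactors Mkl1 and Mkl2 were at 0.85 and 0.80, and Myocd, the cofactor of smooth muscle, had 0 UMIs in both libraries. Of 4 counted TGF-β targets, Smad7 (1.55) and Skil (1.39) were higher in D and Tgfbi (−1.71) in P. With the shift removed, 1 passed the 2-fold mark toward D and 1 toward P.

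Markers of cell types other than epithelium stood beside these results. Of 8 smooth muscle genes, only Smtn had enough UMIs, 891 in P and 244 in D, and it was higher in P (log2 ratio −1.47). The list summed to 33.9 CPM in P and 13.1 CPM in D. Of 7 pericyte genes, Rgs5 had 0 and 227 UMIs, Notch3 715 and 772, Mcam 48 and 78, and Pdgfrb 1 and 0, and the list summed to 28.8 and 53.2 CPM. Of 7 fibroblast genes, Dcn was counted 40 times in P and 1234 times in D. Of the defining collagens, D held 10 UMIs of Col1a1, 19 of Col3a1 and 0 of Col1a2, and P held none of any. That list summed to 1.99 CPM in P and 62.5 CPM in D. Endothelial genes summed to 5.17 and 3.30 CPM and leukocyte genes to 21.1 and 6.99 CPM. By Acta2 class, Dcn was found in 8.76% of D cells without Acta2, 13.1% (11 of 84) with 1 UMI and 11.6% (5 of 43) with 2 to 4. It was found in 0 of 22 with 5 or more, where a floor of 3 cells is 13.6%. Rgs5 was found in 1.12%, 2.38%, 2.33% and 4.55%, the last being 1 cell. Col1a1 and Vim were at 0 in those 22 cells, but all kept D cells held only 10 and 3 UMIs of them. The part of Rgs5 and Dcn in the levels of the 10 genes was otherwise not tested.

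Levels were also read on either side of the limits of the cell filter. Barcodes up to 100 genes under the limit of 800 held 587 CPM of the 10 genes in P and 1071 in D, against 576 and 1110 for those up to 100 genes over it. Cells with 10 to 12% mitochondrial UMIs held 399 CPM in P and 822 in D, and those with over 12 to 14% held 369 and 735. Over all kept cells, Tpm1 and Tpm2 made up most of this sum in both libraries.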

How the data were processed

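Single-cell RNA was measured in 1 P and 1 D library with the 10x Genomics 3′ kit. Per the study's methods and the submitters' processing notes, the authors ran bcl2fastq 2.19.0 and Cell Ranger 3.0.2 and aligned to GRCm38/mm10. The deposited matrices hold raw UMI counts per gene and barcode, as whole numbers without normalization. Cell types and clusters were rebuilt here and may differ from the study's.

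Cells with over 800 genes and at most 12% mt- UMIs were kept. At least 800 genes would have kept 6826 P cells in place of 6818. UMIs were summed per library and scaled per 1000000. With 1 library a group, no test, p-value or standard error was computed. Intervals are exact Poisson for levels, exact binomial (Clopper-Pearson) for shares and exact conditional binomial for ratios. A call needed a 2-fold difference and at least 100 UMIs over both libraries, and a gene at 0 was set to a floor of 3 counts. For shares, each cell was thinned at random to 2100 UMIs, which left 6638 P and 4417 D cells. Where no cell outside a keratin class held a gene, 3 cells were used for its ratio. Clusters came from Seurat 5.3.0 in R 4.3.3 (2000 variable features, 25 components in P and 21 in D, resolution 0.2), without the 10 genes. Other steps used Python 3.11.15 with scipy 1.17.1, and were tested on simulated counts. Doublets were not called.

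The named genes are the 10 chosen, 2 to 4 well-counted examples per list the 8 genes most like the 10 in each library with at least 200 UMIs, and leading genes of clusters. Further list members and markers of other cell types were named after their values were seen. Pairs needed a product of shares of at least 5 cells. The genes and lists were chosen with earlier results of these data known. Of the serum response factor list, 4 current symbols were absent, since the feature table uses the older names Mkl1, Mkl2, Cyr61 and Ctgf. Gene positions come from GENCODE for GRCm38 and promoters from RefSeq. The result of 1 further list is not reported here.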

Additional observations from a re-analysis of the deposited data

Results flagged for a closer look

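Barcodes outside the cell filter entered only the alternatives with a looser filter or none and the values beside the filter limits, and in D they carried these genes as well. Per 1000000 UMIs that were not mitochondrial, the 10 genes summed to 1581 in the 2079 barcodes left out of D, against 619 in the 1376 barcodes left out of P. The kept cells held 1233 in D and 564 in P on the same scale. In the kept cells these sums mostly follow the tropomyosins. Tpm1 and Tpm2 held 11899 and 5464 of the 23258 UMIs in D, and 5423 and 6570 of the 14149 in P. Acta2 alone was at 37.2 in the barcodes left out of D and 44.4 in the kept D cells, against 0.502 in those left out of P, where it had 1 UMI.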

How the results depend on the processing

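The count of genes at least 2-fold higher in D was 5, 6, 7 or 8 under the alternatives. Counts above 5 came with more genes tested. They were 6 of 8 with all barcodes, 7 of 9 at a minimum of 20 UMIs and 8 of 10 with no minimum. The share of all genes was then 14.2%, 15.5% and 22.9%, against 13.5% beside the main count of 5 of 7. Without mitochondrial and ribosomal protein genes the count was 5 of 7, against 6.51% of all genes. Stricter cell filtering (over 1000 genes, at most 10% mitochondrial) left 0 genes at least 2-fold higher in P, since Cav1 then fell short at −0.94. The median log2 ratio of 1.75 became 1.42 without mitochondrial and ribosomal protein genes and 1.33 when scaled by the median ratio. The share of D cells with Acta2, 3.37%, was 2.08% at 1000 UMIs per cell, 4.82% at 3000, 4.39% without thinning and 1.47% for at least 2 UMIs. The counts for Krt14 stayed within 3 to 4 genes in P and 5 to 6 in D. Those for Krt5 did not hold. In P the count of 1 became 2 with the looser filter (over 500 genes, at most 20%) or without the deepest 5% of cells, 3 with the stricter filter, at 3000 UMIs or without thinning, and 0 when Krt5 meant at least 3 UMIs. In D the count of 3 became 1 with the looser filter, without the deepest cells or without thinning, 0 at 3000 UMIs, 2 with the stricter filter and 4 when Krt5 meant at least 3 UMIs. The cause was not tested. For the alternatives of the Krt14 and Krt5 counts, the share over all genes was not computed. D1 kept 89.8 to 90.1% of Acta2 UMIs under other resolutions and with the 10 genes among the features. No paired analysis was possible because each condition holds 1 library, and for the same reason no library could be left out. Counting depth limits Tagln, Cnn1 and Myl9.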
